A study of Macaca mulatta with 10 samples.

Results

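RTP3 encodes receptor transporter protein 3, also known as TMEM7, a membrane protein of the receptor-transporting protein family. It was followed here in the liver of rhesus macaques (Macaca mulatta), in brain-dead donors and living-donor controls. All probe sets annotated exactly as RTP3 were taken. This gave 1 probe set among 52865 on a 1-colour oligonucleotide array, and 1 gene among 14132 with a probe set of their own and 9835 tested. The gene was chosen by its log2 signal in the 2 groups and by its correlation over arrays with other liver genes, so both are given as descriptions without a test.

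Liver RNA of 5 brain-dead and 5 control animals was hybridised with 1 array per animal. Brain death was produced by inflating a balloon catheter, and mean arterial pressure was supported with fluid plus vasopressin and/or dopamine. The sample labels give 6 h of brain death and the series' design text gives 5 h. Control animals were anaesthetised and ventilated for 1 h before their organs were taken, so duration, drugs and brain death cannot be told apart. Organs of both groups were flushed in situ with preservation solution. No animal is labelled as carrying a genetic change. The controls were 3 females and 2 males aged 16, 10, 4, 20 and 10 y for animals 1 to 5. The brain-dead group held 2 females and 3 males, aged 7, 18, 7 and 7 y for animals 1, 2, 4 and 5, and the age of animal 3 is not given in the labels. Where nothing else is said, n = 5 animals a group. Whole liver was measured, and in such bulk RNA fewer cells of a type and less RNA per cell cannot be told apart.

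Receptor-transporting proteins are membrane proteins with a zinc-binding domain that help certain G protein-coupled receptors, such as odorant and bitter taste receptors, to reach the cell surface. RTP1 and RTP2 serve odorant receptors in olfactory neurons, and RTP4 is induced by interferon. RTP3 is known mainly as a liver transcript, and its product can promote surface expression of bitter taste receptors in cultured cells.

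The array medians lay between 175 and 227, and the 2% trimmed mean of every array was 1000. The 5 measured hepatocyte markers of 10 listed were APOA1, APOB, SERPINA1, FGB and AHSG. They summed to signals of 413851 to 529372 in controls and 356692 to 433993 in brain-dead livers. All 5 were lower in brain death, with log2 differences of -0.40 to -0.16, and none passed the test between groups. For AHSG the groups did not overlap. The 5 measured neutrophil markers of 7 listed summed to 604 to 5404 in controls and 7514 to 56685 in brain-dead livers, without overlap. Of the 3 neutrophil markers that could be tested, the calgranulin genes S100A8 and S100A9 were higher in brain death (limma, Benjamini-Hochberg) and carried most of the sum, with mean signals of 12411 and 13929 in brain-dead livers. CSF3R did not pass. Summed markers of macrophages, endothelium, cholangiocytes, stellate cells, T and NK cells, B and plasma cells and erythroid cells overlapped between the groups. No marker was at 0. The part of neutrophil RNA in the results below was not tested.

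RTP3 signals in controls 1 to 5 were 2126, 4394, 3715, 1533 and 1948. In brain-dead animals 1 to 5 they were 94.8, 504, 72.5, 121 and 219. Every control lay above every brain-dead animal, and the lowest control was 3.04 times the highest brain-dead value. The mean signal was 2743 ± 1240 (SD, n = 5) in controls and 202 ± 178 (SD, n = 5) in brain-dead livers. On the log2 scale the means were 11.30 ± 0.65 and 7.28 ± 1.12 (SD, n = 5 each). The log2 difference, brain-dead minus control, was -4.02 ± 0.47 (SE), which is 16.2-fold lower. Over the 25 pairs of a control with a brain-dead animal the ratio had a median of 17.6 and reached 60.6.

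The array median marks how dim a probe set is. RTP3 lay at 8.33 to 19.3 times the median of its array in controls. In brain-dead animals 1 to 5 it lay at 0.440, 2.56, 0.342, 0.693 and 1.23 times that median. Thus 3 of 5 brain-dead arrays held RTP3 below the array median, where the signal carries a larger share of background, and the size of the fall depends there on how low values are treated. With 64 added to every signal before the log, the difference was -3.50. It was -4.45 without brain-dead animal 2, the brain-dead animal with the highest signal. Under the 21 alternatives in which it was computed it lay between these 2 values.

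**Figure D1:**
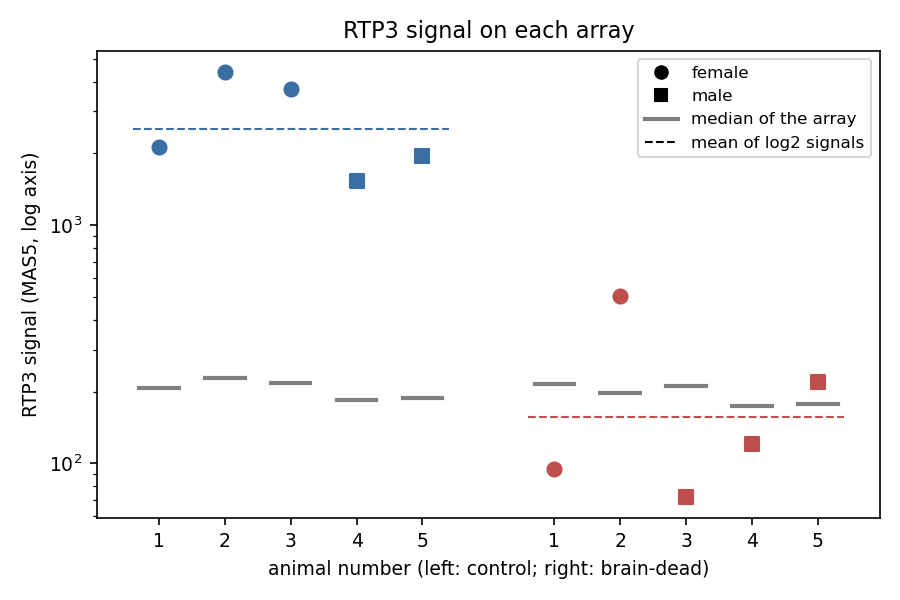
RTP3 signal (MAS5, log axis) of each animal, controls in blue on the left and brain-dead animals in red on the right. Circles are females and squares males, grey bars are the median of each array and dashed lines the mean of the log2 signals of a group. The 5 controls sit between 1533 and 4394, all above their array medians, and the 5 brain-dead animals between 72.5 and 504, with 3 below the median of their array.

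Among genes, RTP3 had the third largest fall on the log2 scale with nothing added. Differences of larger size were those of THRSP, a regulator of fat synthesis (-4.46), and of LOC702244 (-4.24). The next smaller ones were those of TSKU (-3.59), a secreted leucine-rich protein, PNLIP (-3.48), pancreatic lipase, CNGA1 (-3.34), a cyclic nucleotide-gated channel, SORBS2 (-3.15), a cytoskeletal adaptor, and CDT1 (-3.12), a DNA replication licensing factor. CNGA1 and PNLIP did not pass (adjusted p of 0.0796 and 0.382), and the CDT1 call was lost in 5 of 20 alternatives, among them those without control 1 (0.0659), control 2 (0.0696), control 5 (0.0533) or brain-dead animal 5 (0.0661; limma, Benjamini-Hochberg). CNGA1 passed without brain-dead animal 1 (adjusted p of 0.0448) and PNLIP without brain-dead animal 3 (0.0497, both limma with Benjamini-Hochberg). The order depends on how low values are treated: with a pseudocount of 64, LOC702244 differed by -2.75, THRSP by -3.52, TSKU by -3.52 and RTP3 by -3.50. Counted over probe sets rather than genes, RTP3 was ninth. THRSP signals overlapped between the groups, with 330, 1878, 8654, 395 and 7741 in controls and 162, 440, 61.7, 25.2 and 29.1 in brain-dead animals. RTP3 did not overlap, and its standard error of 0.47 compares with 1.00 for THRSP.

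In controls, where RTP3 was bright, its SD of log2 signal, 0.65, exceeded that of 82.1% of the genes tested, whose median SD was 0.41. In brain-dead livers its SD was 1.12. Signals there lay at 0.342 to 2.56 times the array median, and on 3 arrays below it, where log2 values scatter more. That SD is therefore not set against other genes. Controls 2 and 3 lay 0.80 and 0.55 above their group mean on the log2 scale, and controls 1, 4 and 5 lay at -0.25, -0.72 and -0.38. Brain-dead animals 2 and 5 lay 1.69 and 0.49 above the mean of their group, and animals 1, 3 and 4 at -0.72, -1.10 and -0.36. Brain-dead animal 2 was thus the one farthest from its group.

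The sexes were compared because both occur in both groups and the choice of RTP3 did not use them. In controls the 3 females had 2126, 4394 and 3715, and the 2 males 1533 and 1948, so every female lay above every male in signal. The arrays of the 2 males also had the lowest medians of the controls, 184 and 188. Relative to the array median, female control 1 (10.30 times) lay just below male control 5 (10.34 times), so the sexes overlapped on that scale. In brain-dead livers the 2 females had 94.8 and 504 and the 3 males 72.5, 121 and 219, and the sexes overlapped. The fall was -3.90 in females and -3.80 in males on the log2 scale. The interaction of group with sex, male minus female, was 0.10 ± 0.91 (SE), with a 95% interval of -1.90 to 2.10 and an adjusted p of 0.9998 (limma with Benjamini-Hochberg adjustment over 26653 probe sets). That interval is wide, so a difference of up to about 2 log2 units between the sexes is not excluded at this number of animals. No probe set had an interaction past the threshold in limma, against 1015 at an unadjusted p under 0.05. Across both groups, males minus females was -0.87 ± 0.44 (SE) for RTP3, with a limma p of 0.0702 and a Benjamini-Hochberg adjusted p of 0.447, a comparison made after the values had been seen. No probe set passed for that contrast, and 3223 had an unadjusted p under 0.05.

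Among the other receptor-transporting proteins no fall was measured that passed the test. Of 5 family members, 4 have a probe set here and only RTP3 and RTP4 were bright enough to test. RTP4, which is induced by interferon, had signals of 640, 1950, 1119, 872 and 633 in controls and 382, 1849, 584, 904 and 1109 in brain-dead livers. The groups overlapped throughout, with a log2 difference of -0.18 ± 0.41 (SE) and an adjusted p of 0.835 (limma, Benjamini-Hochberg). This difference changed sign when control 2 (0.08) or brain-dead animal 1 (0.10) was left out. RTP2 stayed between 8.2 and 22.6 and RTP5 between 11.5 and 46.3 on all arrays, below the filter on dim probe sets. RTP1 has no paired probe set and is not analysed here.

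The REEP proteins, which shape the endoplasmic reticulum and were named for enhancing receptor expression, and the RAMP and MRAP proteins, which escort calcitonin-type and melanocortin receptors, were set beside them. Of the 8 genes tested besides RTP3 in these families, none passed, in a comparison in which 6.77% of all genes (666 of 9835) and 6.1% of probe sets (1627 of 26653) did (limma, Benjamini-Hochberg). REEP6, the REEP member with the largest difference, came close. Its signals were 11076, 20803, 16034, 7333 and 13234 in controls and 5331, 10148, 6435, 5210 and 2560 in brain-dead livers. Brain-dead animal 2 overlapped the controls. The log2 difference was -1.25 ± 0.35 (SE), with an adjusted p of 0.0532 (limma, Benjamini-Hochberg), and it passed at 0.0257 without control 4 and at 0.0257 without brain-dead animal 2. The other REEP differences were -0.76 for REEP1, 0.53 for REEP2, -0.31 for REEP3 and -0.68 for REEP4, and those of RAMP1 and RAMP2 were -0.51 and -0.45, with adjusted p-values of 0.189 to 0.547 (limma, Benjamini-Hochberg). MRAP and MRAP2 did not pass the filter, which asks for a signal above the array median on 5 arrays. MRAP2 was above it on 4 arrays, with 119, 1026, 426, 92.6 and 514 in controls and 28.8, 214, 58.4, 13.7 and 13.3 in brain-dead livers. Fitted without a filter, its log2 difference was -3.04 ± 0.82 (SE), with an adjusted p of 0.0757 (limma, Benjamini-Hochberg). As in RTP3, animal 2 was the highest of each group.

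Of the receptors that RTP proteins are known to carry, bitter taste receptors were examined, and odorant receptors were not analysed here. Of 24 bitter taste receptors listed, 17 have a probe set, and 16 of these were below the filter on dim probe sets. The exception, TAS2R38, did not differ beyond its spread (0.02 on the log2 scale, adjusted p of 0.979, limma with Benjamini-Hochberg). Among the 4 measured signalling proteins of taste cells, TRPM5, the cation channel that opens at the end of that pathway, was lower in brain death. Its signals were 7309, 6197, 9143, 3260 and 5333 in controls and 2754, 2994, 2565, 3126 and 1876 in brain-dead livers, without overlap. The log2 difference was -1.17 ± 0.27 (SE) with an adjusted p of 0.0272 (limma, Benjamini-Hochberg). The call was lost when control 1 (0.0610), control 2 (0.0650), control 3 (0.0680), brain-dead animal 3 (0.0557) or brain-dead animal 5 (0.0695) was left out. The G protein subunit gene GNB3 (-0.33), the phospholipase gene PLCB2 (-0.36) and the calcium channel gene ITPR3 (0.52) did not pass. Of the 5 taste genes tested, 1 thus fell, where 3.87% of all genes fell (limma, Benjamini-Hochberg) and 4.15% were lower without overlap. So few genes cannot be set against those shares.

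Genes that lie beside RTP3 on its chromosome were examined by their order in the RefSeq gene table of the rhesus macaque (assembly T2T-MMU8v2.0), with 10 protein-coding genes or annotated relatives taken on each side. Of these 20, 11 have a probe set and 4 were bright enough to test. None of the 4 passed under any alternative computed. The nearest tested gene on one side, CCRL2, an atypical chemokine receptor, had 252 to 316 in controls 1 to 4 and 194 in control 5, and 193 to 278 in brain-dead livers (log2 difference -0.13 ± 0.25 SE, adjusted p of 0.796, limma with Benjamini-Hochberg). On the other side ALS2CL, related to the small-GTPase regulator alsin, differed by -0.05 ± 0.32 (SE), with an adjusted p of 0.944 (limma, Benjamini-Hochberg), and its sign changed with the scaling of the arrays. The chemokine receptor genes CCR1 and CCR3 differed by 0.43 and 0.03. LRRC2, directly adjacent to RTP3, was below the filter.

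RTP3 was next set against 102 liver genes in 4 lists by role. The lists were chosen with earlier results of these data known, so an excess over all genes can follow in part from that choice. Of these, 78 have a probe set and 75 were tested. In brain death 18 fell, 1 rose and 56 did not pass, where 3.87% of all genes fell and 2.9% rose (limma, Benjamini-Hochberg). The log2 difference was below 0 for 86.7% of the 75 genes, against 50.5% of all genes, and its median was -0.43, against -0.01. In 22 of the 75 every control lay above every brain-dead animal, as for RTP3, against 4.15% of all genes. The number that fell dropped to 11 without control 1, 11 without control 2, 11 without brain-dead animal 3 and 10 without brain-dead animal 5. The calgranulin genes S100A8 and S100A9 rose between the same groups, as given above. All 5 tested hepatocyte markers were lower in brain death, and none passed.

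Among 27 secreted proteins only LECT2, a chemotactic protein made by hepatocytes, fell (-2.31 ± 0.28 SE, adjusted p of 0.00194, limma with Benjamini-Hochberg), so the share of this list that fell was near the 3.87% of all genes. Its signals were 24592, 39862, 37578, 20216 and 21519 in controls and 4478, 8462, 6942, 5859 and 3500 in brain-dead livers. The 2 controls highest in RTP3 and the brain-dead animal highest in RTP3 were also the highest in LECT2 within their groups. The median difference of the secreted proteins was -0.30.

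Among 24 enzymes 11 fell, with a median difference of -0.71. ALAS1, the rate-limiting enzyme of heme synthesis, had 27978, 20564, 15483, 17767 and 13366 in controls and 2030, 2164, 2704, 6449 and 627 in brain-dead livers (-3.09 ± 0.47 SE, adjusted p of 0.00416, limma with Benjamini-Hochberg). Unlike RTP3, it was lowest in brain-dead animal 5 and highest in brain-dead animal 4. THRSP fell by 4.46 ± 1.00 (SE) with an adjusted p of 0.0230 (limma, Benjamini-Hochberg), a call lost without control 2 (0.0563), control 3 (0.0557), brain-dead animal 4 (0.0546) or brain-dead animal 5 (0.0619). A fit with sex and age as covariates, which also leaves out brain-dead animal 3 for want of its age, ended it too (0.0562). G6PC1, the glucose-releasing phosphatase of liver, fell by 1.85 ± 0.50 (SE; limma with Benjamini-Hochberg, adjusted p of 0.0460). That call was lost in 13 of 21 alternatives, and other G6PC1 probe sets differed by -1.51 (adjusted p of 0.0644, limma with Benjamini-Hochberg) and 0.46. The other enzymes that fell were OTC, HGD, GLYAT, BHMT, ADH4, SULT2A1, GYS2 and UPB1.

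Among 11 membrane proteins, the class to which RTP3 belongs, 4 fell and 1 rose. SLC22A7, an organic anion transporter, had 15067, 26277, 15760, 3585 and 4865 in controls and 1581, 3190, 728, 1341 and 691 in brain-dead livers (-2.99 ± 0.55 SE, adjusted p of 0.0105, limma with Benjamini-Hochberg). As for RTP3, control 2 was the highest control, control 4 the lowest, and brain-dead animal 2 the highest of its group. The bile-side and blood-side transporters ABCC2 (-0.85 ± 0.22 SE, adjusted p of 0.0420) and SLCO1B3 (-1.30 ± 0.30 SE, adjusted p of 0.0247, both limma with Benjamini-Hochberg) fell as well, and so did SLCO1B1. The ABCC2 call was lost in 13 of 21 alternatives and the SLCO1B3 call in 5, and a second probe set of each gene differed by -0.39 for ABCC2 and -0.62 for SLCO1B3 and did not pass. SLC13A5, the citrate importer, rose from 1872, 1131, 1478, 1335 and 5405 in controls to 41886, 16577, 34714, 40135 and 50396 in brain-dead livers (4.21 ± 0.41 SE, adjusted p of 5.0e-04, limma with Benjamini-Hochberg). Its change was of about the size of that of RTP3 with the opposite sign.

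Among 13 transcription regulators 2 fell. NR1I3, the constitutive androstane receptor, had 3079, 5089, 3824, 2001 and 2001 in controls and 712, 339, 521, 631 and 245 in brain-dead livers (-2.72 ± 0.34 SE, adjusted p of 0.00244, limma with Benjamini-Hochberg). Brain-dead animal 2, the highest in RTP3, was among the lower ones in NR1I3. CEBPA, a regulator of hepatocyte metabolism, fell by 1.23 ± 0.31 (SE; limma with Benjamini-Hochberg, adjusted p of 0.0351), a call lost in 12 of 21 alternatives. Its other probe sets passed as well, at -1.30 and -1.27 (adjusted p of 0.0476 and 0.0398, limma with Benjamini-Hochberg).

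**Figure D2:**
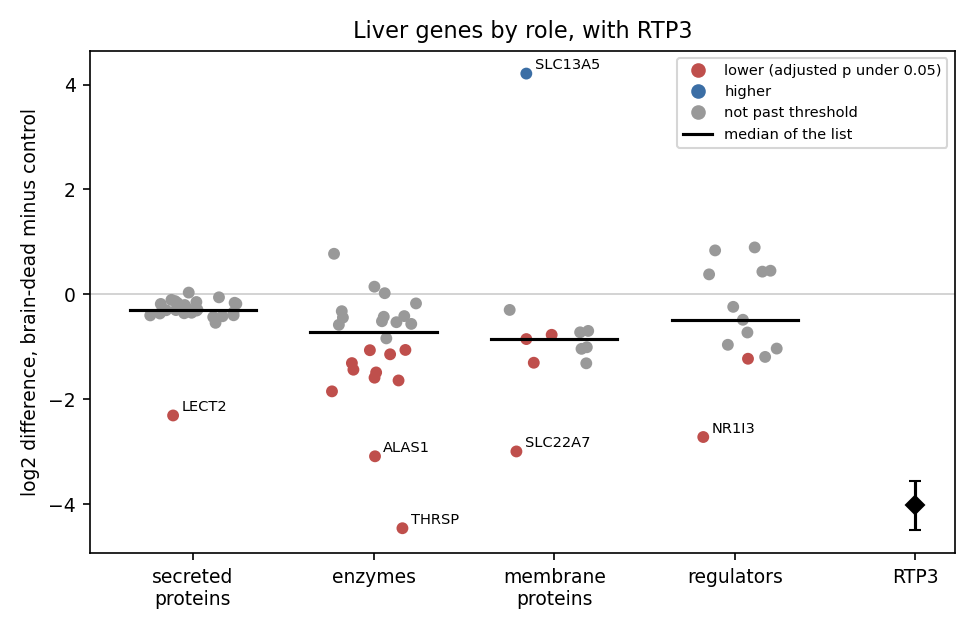
Log2 difference, brain-dead minus control, of each tested gene in the 4 liver lists, with RTP3 on the right as a black diamond with its standard error. Red and blue points passed the test (limma, adjusted p under 0.05) as lower or higher, grey points did not, and black lines are list medians. RTP3 at -4.02 lies below all points but THRSP at -4.46, and the membrane proteins spread from -2.99 to 4.21.

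Likeness to RTP3 was measured as the Pearson correlation of log2 signals over the 10 arrays, which share the array design and the group difference, so a gene that falls strongly scores high by that alone. It was also measured on deviations from the group means, which leaves the group difference out. Over the 10 arrays the 75 liver genes had a median r of 0.57 with RTP3, against 0.02 for all genes, with a range from -0.94 to 0.93. By role the medians were 0.50 for secreted proteins, 0.74 for enzymes, 0.61 for membrane proteins and 0.48 for regulators. Without the 2 arrays farthest from the median in RTP3 (brain-dead animals 1 and 3) the median of the 75 genes was 0.68.

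With the group difference left out, the liver genes did not follow RTP3. Their median r was -0.17, against 0.03 for all genes, and 33.3% of them were above 0, against 53.3% of all genes. By role the medians were -0.25 for secreted proteins, 0.15 for enzymes, -0.23 for membrane proteins and -0.13 for regulators. Without control 2 and brain-dead animal 2, the arrays with the largest deviations, they were -0.41, -0.22, -0.32 and 0.09 in that order, so the sign turned for enzymes and regulators. Just 3 of the 75 exceeded 0.5: SLC22A7 at 0.67 (0.33 without those 2 arrays), FOXA1, a pioneer transcription factor of liver, at 0.64, and UPB1, a pyrimidine-degrading enzyme, at 0.58. That is 4% of the list, against 7.02% of all genes. Without those 2 arrays the median of all 75 was -0.31, and without both animals numbered 1 it was 0.01. On these values, most liver genes did not share the difference between animals of a group in RTP3. Brain-dead animal 2, with the largest deviation, lay at 2.56 times its array median. In 3 of the 5 brain-dead livers RTP3 was below the array median, where log2 values scatter more. The part of that scatter in the r values of deviations, here and below, was not tested.

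The 10 genes with the highest r over all arrays were SORBS2 (r = 0.965), TMEM141 (0.960), DKK2 (0.959), LRRC29 (0.947), PYROXD2 (0.946), TM2D3 (0.941), LOC702244 (0.940), UQCC5 (0.935), LECT2 (0.932) and VSNL1 (0.931). All 10 were lower in brain-dead livers, with log2 differences from -0.70 for TM2D3 to -4.24 for LOC702244, as this choice makes likely, and no test is given. SORBS2 had 11526, 11581, 8701, 6457 and 6600 in controls and 504, 2388, 783, 1244 and 771 in brain-dead livers. DKK2, a secreted modulator of Wnt signalling, had 4179, 7697, 5919, 2051 and 3374 in controls and 352, 1790, 703, 493 and 525 in brain-dead livers. In both genes, as in RTP3, brain-dead animal 2 was the highest of its group. On deviations from the group means the r of these 10 genes with RTP3 was 0.49 to 0.81, which their choice over the same arrays also makes likely. For SORBS2 it dropped from 0.74 to 0.28, and for LECT2 from 0.49 to -0.06, once brain-dead animal 2 and control 2 were left out. Spearman's rho over the 10 arrays was 0.927 for SORBS2 and for DKK2. Other probe sets gave lower values where they exist, down to 0.330 for TM2D3 and 0.362 for UQCC5.

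At the other end, the 5 genes with the lowest r were ZFYVE16 (-0.975), an endosomal protein, PIM1 (-0.973), a cytokine-induced kinase, CASP10 (-0.956), an initiator caspase, SOCS3 (-0.948), a feedback inhibitor of cytokine signalling, and SRSF10 (-0.945), a splicing factor. SOCS3 had 288, 458, 343, 363 and 442 in controls and 2089, 657, 2917, 1818 and 1997 in brain-dead livers. Brain-dead animal 2 had the lowest SOCS3 of its group and the highest RTP3, and brain-dead animal 3 the highest SOCS3 and the lowest RTP3. PIM1 had 2064, 1733, 2082, 2921 and 2074 in controls and 10170, 5229, 8376, 8204 and 9005 in brain-dead livers, again with brain-dead animal 2 as the lowest of its group. On deviations from the group means these 5 genes had r values of -0.82 to -0.60, as their choice by r over the same arrays makes likely. For SOCS3 this r was -0.71, and over the alternatives it ranged from -0.84 to -0.15. Without brain-dead animal 2 and control 2 it was -0.48 for SOCS3, -0.33 for PIM1, -0.31 for SRSF10, -0.53 for CASP10 and -0.77 for ZFYVE16. Other probe sets gave r values of deviations of -0.26, -0.09 and -0.37 for ZFYVE16 and -0.46 for SRSF10.

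**Figure D3:**
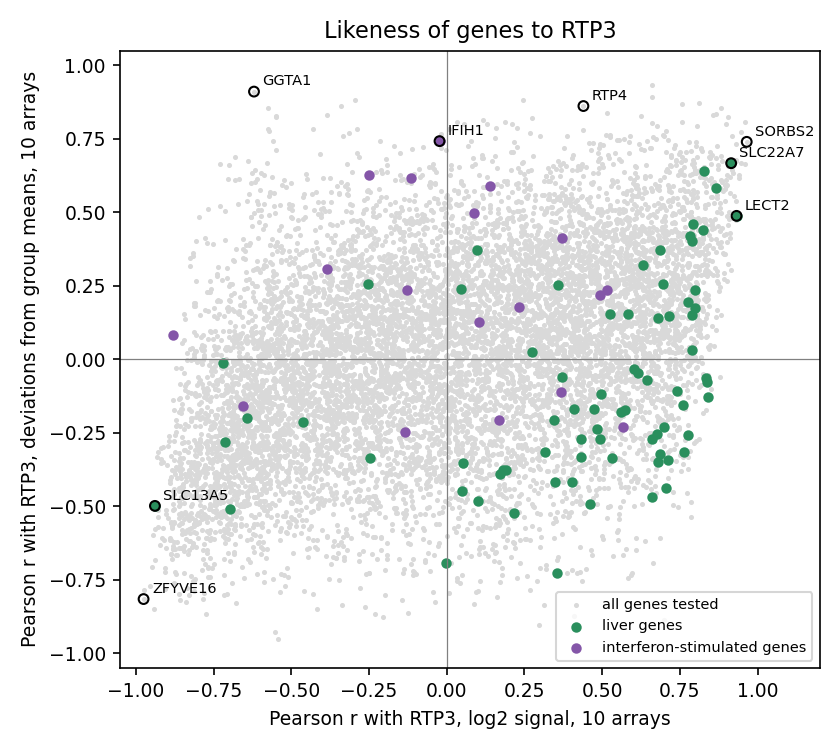
Each point is a gene; the x axis is its Pearson r with RTP3 over 10 arrays and the y axis the r of deviations from the group means. Liver genes are green, interferon-stimulated genes purple and all genes tested grey. The green points lie mostly to the right (median 0.57) and below the middle line (median -0.17), and RTP4 lies high at 0.86 on the y axis.

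The 10 genes whose deviations from the group means were most like those of RTP3 are given next. They were LOC717402 (r = 0.934), GGTA1 (0.911), LOC695105 (0.892), IL15 (0.883), NEURL3 (0.883), PNMA8A (0.871), TNFSF10 (0.870), RTP4 (0.862), AMZ1 (0.862) and RBL1 (0.857). None of the 10 was a liver-list gene, but the liver lists hold only 75 of the 9834 genes, so few would be among any 10. The family member RTP4 was among the 10, eighth of 9834. Their difference between groups was not used to pick them. Of the 10, GGTA1 rose, none fell, and 9 did not pass, where 6.77% of all genes passed (limma, Benjamini-Hochberg). PNMA8A and RBL1 passed as lower without brain-dead animal 2, with adjusted p-values of 0.0366 and 0.0319 (limma, Benjamini-Hochberg).

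GGTA1, the alpha-galactosyltransferase gene whose enzyme is not functional in Old World monkeys, had 646, 1100, 1673, 591 and 646 in controls and 2051, 9751, 2855, 4095 and 5564 in brain-dead livers. It rose by 2.30 ± 0.41 (SE) on the log2 scale, with an adjusted p of 0.00901 (limma, Benjamini-Hochberg). RTP3 and GGTA1 thus differed in opposite directions between the groups, with an r of -0.62 over the 10 arrays, and yet were high in the same animals within each group, namely controls 2 and 3 and brain-dead animals 2 and 5. Without control 2 and brain-dead animal 2 the r of deviations was 0.87.

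IL15, a cytokine that sustains NK and memory T cells, had 259, 362, 603, 268 and 333 in controls and 240, 969, 270, 315 and 374 in brain-dead livers (log2 difference 0.11, adjusted p of 0.893, limma with Benjamini-Hochberg). TNFSF10, the death ligand TRAIL, had 14603, 34783, 26070, 15545 and 17014 in controls and 6945, 25902, 11836, 11912 and 14141 in brain-dead livers (-0.66, adjusted p of 0.256, limma with Benjamini-Hochberg). In each of them controls 2 and 3 and brain-dead animal 2 were the highest of their groups, as in RTP3. Other probe sets of IL15 and TNFSF10 gave r values of 0.41 for IL15 and of -0.01 and 0.67 for TNFSF10. The TNFSF10 probe set with 0.67 passed as lower (-1.17, adjusted p of 0.0459, limma with Benjamini-Hochberg), and the one with -0.01 differed by -0.06.

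For RTP4 the r of deviations with RTP3 was 0.862 and Spearman's rho 0.770, and over the alternatives r lay between 0.789 and 0.902. Without control 2 and brain-dead animal 2, the animals with the largest deviations, it was 0.70. Over the 10 arrays, with the group difference in, r was 0.44, and without brain-dead animals 1 and 3 it was 0.01. In both groups animal 2 was the highest in RTP3 and in RTP4. Among the controls the order differed below animals 2 and 3, since control 4 was lowest in RTP3 and in the middle for RTP4.

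**Figure D4:**
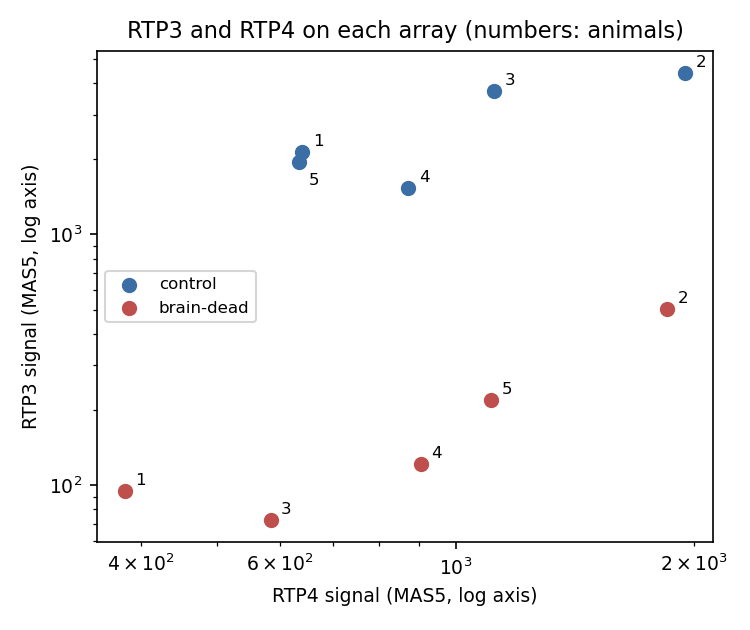
RTP3 signal (y, log axis) against RTP4 signal (x, log axis) for each animal, controls in blue and brain-dead animals in red, with animal numbers. RTP4 overlaps between the groups (633 to 1950 against 382 to 1849) while RTP3 does not, and animal 2 is at the upper right of each group.

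Because RTP4, IL15 and TNFSF10 are interferon-induced genes, a list of 25 interferon-stimulated genes was set against RTP3. All 18 with a probe set were tested. In brain death IRF7, the interferon regulatory factor, rose (1.66 ± 0.21 SE, adjusted p of 0.00244, limma with Benjamini-Hochberg), none fell and 17 did not pass, where 2.9% of all genes rose and 3.87% fell. Another IRF7 probe set differed by 0.12 and did not pass. The median log2 difference of the list was 0.09. The r of deviations with RTP3 was above 0 for 13 of the 18 (72.2%, against 53.3% of all genes), with a median of 0.23, and above 0.5 for 4 (22.2%, against 7.02%). These were the RNA sensors IFIH1 (0.74) and RIGI (0.63), and XAF1 (0.62) and IFIT3 (0.59). The lowest in the list were OAS2 (-0.25), IFI44 (-0.23) and OAS3 (-0.21), while MX1 was at 0.13 and ISG15 at 0.18. IFIH1 had 1640, 1302, 1606, 1680 and 955 in controls and 1240, 3803, 1307, 1181 and 2467 in brain-dead livers. In brain-dead livers its highest animals were 2 and 5, as in RTP3, but in controls animal 2 was not high. The median of the list was 0.12 to 0.34 over the alternatives, and 0.20 without control 2 and brain-dead animal 2. For cell type markers, signals were summed and the log2 of the sum was used, so bright markers weigh most. Its r of deviations with RTP3 was 0.14 for neutrophils and -0.26 for hepatocytes. It was farthest from 0 for cholangiocytes (0.59), B and plasma cells (-0.56) and erythroid cells (-0.48). The 2 tested cholangiocyte markers, KRT19 and EPCAM, had r values of 0.66 and 0.54, and the other 3 in the sum were below the filter. The part of these cells in the result was not tested.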

How the data were processed

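The authors deposited a linear intensity for each probe set on each array, made with MAS5 per the submitters' processing notes (version not given in the sources). It was log2-transformed here with nothing added. Of 52865 probe sets, 99 control probe sets were left out, and 26653 above the array median on at least 5 of 10 arrays were kept. Names came from the 2016 platform annotation, in which 24969 probe sets have a single symbol, and the RefSeq gene table held 24629 of these. A gene was represented by its probe set with the highest mean log2 signal, a reading of the rule settled after values were seen, so the linear mean was added as an alternative. Groups were compared with limma (version 3.58.1, R 4.3.3; lmFit and eBayes with its trend option), with group as the only term, p-values adjusted by Benjamini-Hochberg over all kept probe sets, and a threshold of 0.05. The number of arrays limits the precision.

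RTP3, the lists and the tests were chosen with earlier results of these data known. Genes named were its families, genes past the threshold in other lists (at most 3 falls and 1 rise per liver list, 5 elsewhere), the nearest measured neighbours, the 10 most and 5 least like by r, the 10 most like on deviations from group means, and up to 5 on either side of RTP3 in size of fall. UPB1, FOXA1, the cell type markers, CCR1, CCR3, SLCO1B1, taste genes other than TRPM5, the other enzymes that fell and interferon-stimulated genes other than IRF7 were named after their values were seen. The R package data.table (version 1.17.8) read the tables, and matplotlib 3.10.9 in Python 3.11.15 drew the figures.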

Additional observations from a re-analysis of the deposited data

Results flagged for a closer look

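For each of 50 genes named, the highest or lowest sample of each group of 5 was set against the others. Its gap to the nearest sample was divided by the range of the group, and values above 0.71 were taken, which chance gives in about 1 of 20 groups. Of 100 groups 4 were taken, which is not more than that rate gives. Neither RTP3 group was among them. In controls, animal 4 stood apart in 3 genes. ALS2CL had 139 there against 263 to 316 in the others (gap over range 0.778). LRRC29 had 401 against 615 to 673 (0.825), and AMZ1 had 88.6 against 168 to 207 (0.753). Control 4 was also the control with the lowest RTP3. LRRC29 and AMZ1 were named for their likeness to RTP3, so their low values in that animal follow in part from the choice. In the brain-dead group, PNLIP had a signal of 103695 in animal 3 against 8.05 to 82.2 in the others (0.755), while controls had 48.6, 5050, 14940, 8905 and 254. The PNLIP difference of -3.48 ± 2.28 (SE) did not pass (adjusted p of 0.382, limma with Benjamini-Hochberg). With animal 3 in, the mean signal was higher in brain-dead livers, at 20770 against 5840 in controls. Without it PNLIP passed as lower (-5.87, adjusted p of 0.0497, limma with Benjamini-Hochberg). With sex and age in the model, which also leaves that animal out, it passed at -6.39 (0.0493, same test).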

How the results depend on the processing

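The RTP3 difference was negative under all 21 alternatives. Its interaction with sex was 0.10 and turned to -0.80 (adjusted p of 0.915, limma with Benjamini-Hochberg) without both animals numbered 1, and ranged from -1.10 to 1.31 when 1 animal was left out. It was not fitted beside sex or age as covariates. Without a filter 1056 probe sets passed against 1627, with sex and age in the model 1035, without both animals numbered 1 674, and without 1 animal 660 to 2289. Here and below, the fit with sex and age also leaves out brain-dead animal 3, whose age is not given. Its results thus cannot be credited to the covariates alone. In the RTP, REEP and accessory families 1 gene, REEP6, passed with a pseudocount of 64, with the filter at the 75th percentile, and 0 to 1 without 1 animal. In the taste list 0 passed without both animals numbered 1, and 0 to 1 without 1 animal. In the liver lists 9 fell with sex and age in the model and 10 to 19 without 1 animal, and 2 rose with the filter at the 75th percentile and 1 to 2 without 1 animal (2 without brain-dead animal 2). The median r of liver genes with RTP3 was 0.443 with quantile normalization and 0.676 without both animals numbered 1. RTP4 differed by 0.020 with sex and age, and by -0.47 to 0.10 without 1 animal. ALS2CL differed by 0.014 with quantile normalization, 0.016 with median centring (where all genes shifted by 0.06) and 0.00121 without both animals numbered 1, and by -0.26 to 0.13 without 1 animal. IL15 differed by -0.23 to 0.31 without 1 animal. The linear mean as the choice of probe set left all list counts the same.

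Same-numbered animals correlated at 0.38, 0.06, 0.13, 0.09 and 0.13 in their deviations, and only number 1 matched best with its own, so the numbers were not taken as pairs. With the replicate block 3013 probe sets passed, 1 gene of the RTP, REEP and accessory families (REEP6), 24 falling and 2 rising liver genes, with RTP3 at -4.02 ± 0.37 (SE), and CNGA1 passed (adjusted p of 0.0237, limma with Benjamini-Hochberg). Correlations were not recomputed where only the model changed.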
